A study of Homo sapiens with 8 samples.

Results

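A2780 is a human ovarian carcinoma cell line. DNA bound to γH2AX, the histone variant H2A.X carrying the phosphate that damage signalling adds, was recovered from it by chromatin immunoprecipitation and sequenced. The regions described here are the γH2AX peaks called in cisplatin-treated A2780 cells that had no counterpart after Pt-ttpy or without drug and that lay in stretches of the genome where the untreated list held no peak. The 8 samples formed 4 groups of 2: cells given cisplatin at its IC80 for 96 hours, cells given Pt-ttpy at its own IC80 for 96 hours, untreated cells, and input chromatin of untreated cells taken without antibody. All were A2780 cells, so the data describe 1 cell line. By the labels 1 peak list stands for both replicates of a group, so every value below comes from 1 list per group, has no replicates and carries no test between conditions; input was not analysed here.

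Cisplatin binds to DNA and links neighbouring purines, mostly guanines, on one strand and sometimes across both strands. Such crosslinks stall replication forks and transcription, and stalled or broken forks lead the kinases of the DNA damage response to phosphorylate H2A.X around the lesion. Pt-ttpy is a platinum complex built to bind G-quadruplexes, folded structures of guanine-rich DNA that are common in telomeres and in many promoters. A peak found after cisplatin alone is thus a place where the γH2AX signal passed the caller's limit with the classical crosslinker and did not do so with the G-quadruplex binder. The mark can spread far from a lesion, so the position of a peak is not the position of an adduct.

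The members were chosen from the peak calls themselves. Chromosomes 1 to 22 were cut into 1 Mb windows, windows holding an untreated peak midpoint were dropped, and chromosome 1 was left out from 142 Mb on. This left 2314 of 2897 windows, of which 2163 held assembled sequence outside the large centromere and short-arm gaps, for 2153 Mb in all. In these quiet windows the cisplatin list placed 2167 peaks. Of these, 1944 shared no base with a Pt-ttpy or untreated peak and are the cisplatin-only peaks described here, out of 26121 peaks in the cisplatin list and 54434 in the 3 lists together. The remaining 223 lay on a Pt-ttpy peak, and 0 lay on an untreated peak.

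The quiet windows are quiet only in the untreated list as deposited. The peaks of that list are numbered up to 18049, and 8848 of the numbers are missing from it. Its 10090 peaks carry 9201 different numbers, so some peaks share a number, for a reason not given. A missing number lies somewhere between its retained neighbours in the numbering. Only 115 quiet windows lay where no number was missing, 48 of them with assembled sequence. Those windows held 18 cisplatin-only peaks and 1 Pt-ttpy-only peak. In the other quiet windows an untreated peak may have been called, and a single one would have taken the window and all its members out of the rule.

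Cisplatin-only peaks outnumbered Pt-ttpy-only peaks in the quiet windows 4.48 times. There were 0.903 cisplatin-only peaks per Mb, against 0.202 Pt-ttpy-only peaks per Mb, while peaks common to both drugs came to 0.104 per Mb in the cisplatin list. In the windows where no untreated number was missing, the densities were 0.381 cisplatin-only and 0.0212 Pt-ttpy-only peaks per Mb, the second from its 1 peak. Among peaks with a -log10 q of 5 or more, as each list gives it, there were 274 cisplatin-only and 128 Pt-ttpy-only peaks in the quiet windows, a ratio of 2.14. Being called with cisplatin alone was the usual state of a cisplatin peak in these windows, at 89.7% (1944 of 2167; exact binomial 95% interval 88.4 to 91.0%), whereas over the whole cisplatin list on chromosomes 1 to 22 it was 51.5% (12943 of 25132). For Pt-ttpy the matching shares were 66.0% in the quiet windows (434 of 658) and 29.4% in the whole list (5127 of 17416). These shares follow from the rule and are given as descriptions. The intervals cover counting error only.

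The cisplatin-only peaks were weak. The pileup, the number of overlapping extended reads at the summit, was recovered from the deposited folds as whole reads. It ranged from 14, the lowest in the list, to 36, with a median of 17 and quartiles of 16 and 19, over a background of 4.78 that was constant along the genome. The folds ran from 2.60 to 6.40 with a median of 3.12, and 14.1% of the peaks had a -log10 q of at least 5. The 223 cisplatin peaks that lay on a Pt-ttpy peak were stronger, with a median pileup of 23, and in 67.3% the -log10 q reached 5. Over the whole cisplatin list on chromosomes 1 to 22 the median pileup was 20, and 46.6% reached that -log10 q. The Pt-ttpy-only peaks reached pileups of 19 to 46 over a background of 6.49 unscaled reads. They were weak as well, with a median fold of 3.26 in their own list, and 29.5% had a -log10 q of at least 5. In units of its own background the lowest called pileup was 2.93 in the cisplatin list, 2.93 in the Pt-ttpy list and 3.87 in the untreated list, whose background was 2.33 reads. The limit was thus alike for both drugs only as a ratio over background, and higher in the untreated list that defines the quiet windows. In reads, it was 14 over 4.78 for cisplatin and 19 over 6.49 unscaled for Pt-ttpy. A like ratio at different read numbers is not a like chance of passing. Whether this bears on the numbers of peaks was not tested.

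The share of cisplatin-only peaks fell as the pileup rose. At a pileup of 14 to 15, 341 of 343 cisplatin peaks in the quiet windows (99.4%) were called with cisplatin alone. The share was 97.8% at 16 to 17, 92.2% at 18 to 19, 84.5% at 20 to 22 and 70.7% at 23 to 25. Above that, 57 of 134 peaks (42.5%, 95% interval 34.0 to 51.4%) were cisplatin-only, so most of the strongest peaks of these windows were found after both drugs. Of the quiet-window cisplatin peaks, 7 had a -log10 q above that of the strongest cisplatin-only peak. That these lay on a Pt-ttpy peak follows from the rule, since 0 of the quiet-window cisplatin peaks lay on an untreated peak. Shares by pileup were made for the quiet windows only. Over the whole cisplatin list on chromosomes 1 to 22 the share was 51.5% for all pileups together. Whether the fall with pileup is particular to the quiet windows was thus not tested.

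**Figure D1:**
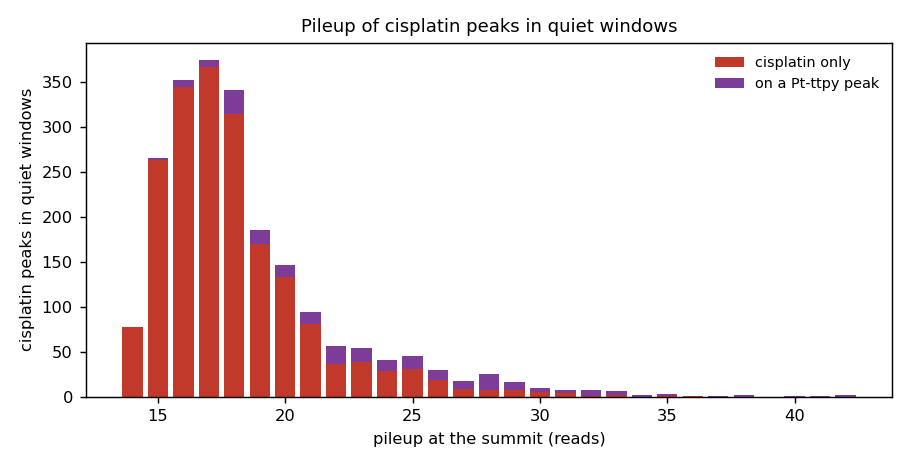
Number of cisplatin peaks in quiet windows (y axis) by pileup at the summit in reads (x axis); red bars are the 1944 cisplatin-only peaks and the violet bars stacked on them the 223 peaks that lay on a Pt-ttpy peak. Cisplatin-only peaks were most numerous at a pileup of 17 and ended at 36.

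They were also scattered. Of the 2163 quiet windows with assembled sequence, 1018 (47.1%) held at least 1 cisplatin-only peak, and 620 held exactly 1. A further 354 windows held 2 to 4 and 44 held 5 or more. Median distance to the next cisplatin-only peak was 219 kb, and 372 peaks (19.1%) had no other within 1 Mb. The nearest Pt-ttpy peak lay at a median of 730 kb and the nearest untreated peak at 3146 kb. The rule dropped whole windows for an untreated peak and only overlapping peaks for Pt-ttpy. The distance to an untreated peak is thus partly set by the rule, and the distances cannot be compared like for like. With members chained across gaps of up to 50 kb, 1355 of the 1944 (69.7%) stood alone, 200 stood in pairs and 389 in blocks of 3 or more.

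All 22 chromosomes carried cisplatin-only peaks, and on all 22 they were denser per Mb of quiet window than Pt-ttpy-only peaks. Densities ranged from 0.217 per Mb on chromosome 22, where there were 5, to 1.43 per Mb on chromosome 11, where there were 153, with a median over chromosomes of 0.860. Chromosome 14 had 1.42 and chromosome 13 had 1.29 per Mb. On chromosome 11, 83 of the 153 peaks were in blocks, and its lone peaks numbered 0.542 per Mb, below the median over chromosomes of 0.637. Chromosome 14 kept the highest density of lone peaks, at 0.935 per Mb, and chromosome 20, with 11 lone peaks, the lowest. Chromosome 2 held the most in number, 201 peaks, beside 57 Pt-ttpy-only peaks. Pt-ttpy-only peaks were densest on chromosome 11 as well, at 0.392 per Mb.

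**Figure D2:**
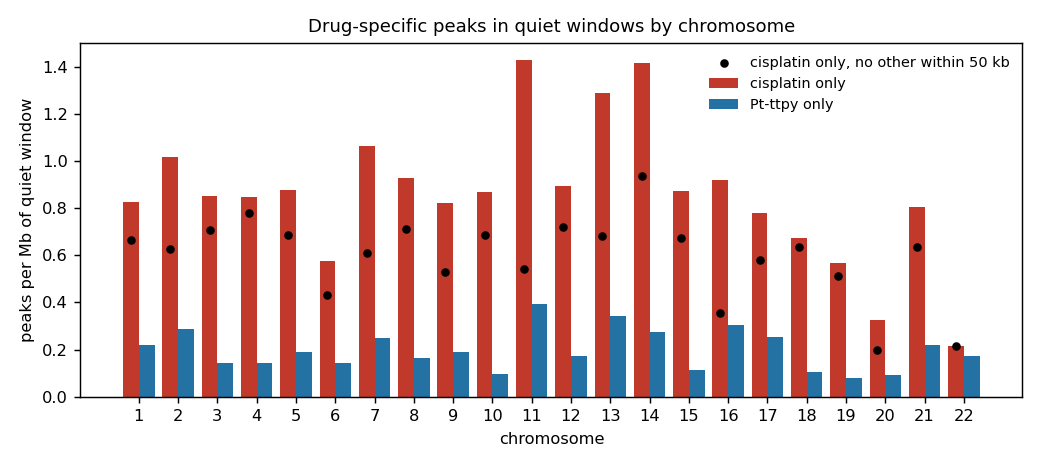
Peaks per Mb of quiet window (y axis) by chromosome (x axis): red bars are cisplatin-only peaks, blue bars Pt-ttpy-only peaks, and black points cisplatin-only peaks with no other within 50 kb. Red bars stand above blue ones on all 22 chromosomes. The points lie far below the red bars on chromosomes such as 11, 13 and 16, where many peaks were in blocks.

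Chromosome ends held a smaller share of the cisplatin-only peaks than of the quiet sequence. There were 59 cisplatin-only peaks within 5 Mb of a chromosome end (3.03%, exact binomial 95% interval 2.32 to 3.90%), where the quiet windows have 5.49% of their sequence. Among the lone peaks the share was 3.91%, and among the Pt-ttpy-only peaks 5.30% (3.39 to 7.85%). Within 5 Mb of a centromere or short-arm gap were 130 cisplatin-only peaks (6.69%, 5.62 to 7.89%), beside 4.61% of the Pt-ttpy-only peaks (2.84 to 7.03%) and 5.28% of the quiet sequence. Peaks in a block are not independent of each other, so the intervals are too narrow.

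The strongest cisplatin-only peaks were lone, narrow and far from any Pt-ttpy peak. The 10 with the highest -log10 q were on 10 different chromosomes, were 108 to 142 bp wide, and had pileups of 30 to 36. Of these 10, 9 had no other cisplatin-only peak within 50 kb, and the nearest Pt-ttpy peaks of the 10 were 1062 to 5157 kb away. Among all cisplatin-only peaks 69.7% stood alone at that distance, and these had a median of 1029 kb to a Pt-ttpy peak. Standing alone and far from Pt-ttpy peaks was thus common at any strength. The leading peak was on the long arm of chromosome 2 at chr2:148952263-148952377 (hg19), with a pileup of 36, a fold of 6.40 and a -log10 q of 16.5. Next came chr15:56431460-56431574 with a pileup of 35, a fold of 6.23 and a -log10 q of 15.6. A pileup of 33 was reached on the short arm of chromosome 3 at chr3:29572149-29572278 and on the long arm of chromosome 21 at chr21:18772388-18772502.

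Chromosome 19 followed with a pileup of 32 at chr19:17408762-17408878. Its next cisplatin-only peak was 2646 kb away, the longest such distance among the 10. Pileups of 31 were found at chr5:111728899-111729040, chr9:113456582-113456689, chr16:80678925-80679039 and chr17:53584655-53584773, and a pileup of 30 at chr1:71223617-71223744, which 5 cisplatin-only peaks shared, so the last place among the 10 was a tie. None of these 10 places had any Pt-ttpy or untreated peak within 1 Mb. Which genes or sequence features they hold is not given here, since no annotation or sequence of the hg19 build was used.

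The cisplatin-only peaks were narrow, and among them the stronger ones were narrow more often. Their median width was 123 bp, against 169 bp in the cisplatin list on chromosomes 1 to 22, and 403 of them had the smallest width in the list, 101 bp. A width of up to 120 bp, a limit set with the widths already known, was found in 29.6% of the cisplatin-only peaks at a pileup of 14 to 15, in 40.5% at 16 to 17, in 51.1% at 18 to 19, in 60.6% at 20 to 22 and in 78.8% at 23 to 25. Among cisplatin peaks outside the quiet windows the shares at the same pileups were 18.6%, 26.9%, 30.1%, 26.7% and 20.6%. At pileups of 26 to 60 they were 70.2% of 57 cisplatin-only peaks and 8.87% of 5683 peaks outside. This last class is not matched in pileup, because cisplatin-only peaks ended at 36 and those outside could reach 60. The median width of the outside peaks in it was 306 bp.

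Narrow peaks were not limited to those of cisplatin alone. In the quiet windows 75.6% of the 41 cisplatin peaks on a Pt-ttpy peak with a pileup of 23 to 25 were also up to 120 bp wide, and 37.7% of the 77 with a higher pileup. The share was 31.25% of 16 at 16 to 17, 29.3% of 41 at 18 to 19 and 37.0% of 46 at 20 to 22. From 16 to 22 these shares were below those of the cisplatin-only peaks. At 14 to 15 there were only 2 such peaks, and 50% were that narrow. In all, 907 of the 1944 cisplatin-only peaks (46.7%) were that narrow, beside 230 of the 434 Pt-ttpy-only peaks. Such widths are below the 200 to 700 bp to which the chromatin was sonicated.

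**Figure D3:**
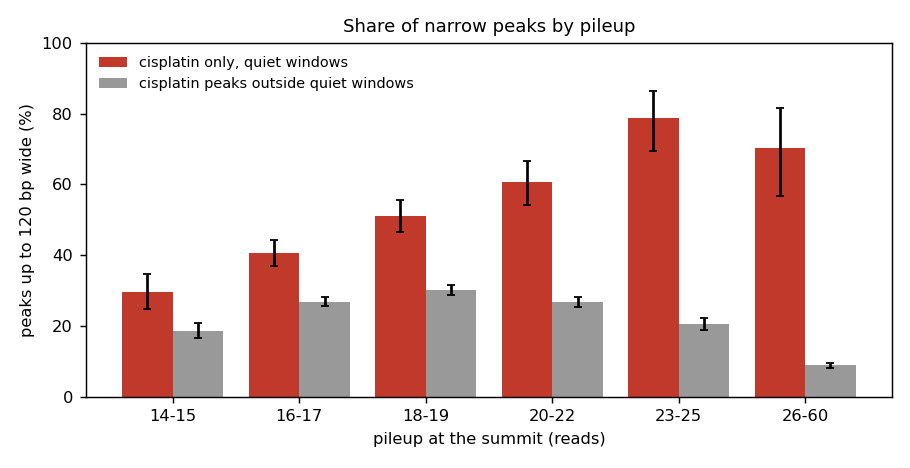
Share of peaks up to 120 bp wide (y axis, %) by pileup at the summit in reads (x axis), for cisplatin-only peaks in quiet windows (red) and cisplatin peaks outside quiet windows (grey); bars carry exact binomial 95% intervals for counting error. In the class of 23 to 25 reads the share was 78.8% in red and 20.6% in grey.

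A smaller number of cisplatin-only peaks were packed into compact blocks. With gaps of up to 50 kb, a distance chosen after the positions were seen, 50 blocks of 3 or more held 389 of the peaks in 3063 kb, or 0.142% of the quiet sequence. The same 50 blocks held 136 Pt-ttpy peaks. Of the Pt-ttpy-only peaks of the quiet windows, 92 (21.2%) lay in them, and so did 44 (19.7%) of the cisplatin peaks common to both drugs. At least 1 Pt-ttpy peak lay in 33 of the 50 blocks. Of the 136 Pt-ttpy peaks there, 92 shared no base with a cisplatin peak, a share near the 66.0% (434 of 658) of all quiet windows. Both drugs' lists are named with untreated beside the drug, so they may have a control in common. The background recovered for each list was constant along the genome. Whether a common control bears on the shared blocks was not tested. The quiet windows were chosen on the untreated list for both drugs.

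Block peaks and lone peaks had the same median pileup, 17 reads, and differed in shape and surroundings. Block peaks had a median width of 143 bp, and lone ones 120 bp; 28.3% of the block peaks were up to 120 bp wide, and 51.7% of the lone peaks. A pileup of 23 or more was reached by 11 of the 389 block peaks (2.83%), and by 130 of the 1355 lone peaks (9.59%). A Pt-ttpy peak lay within 10 kb of 213 block peaks (54.8%), and of 25 lone peaks (1.85%). Median distance to the nearest Pt-ttpy peak was 8.28 kb from block peaks, and 1029 kb from lone peaks.

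The block with most cisplatin-only peaks was on the long arm of chromosome 13. At chr13:81443362-81541179, 98 kb held 41 cisplatin peaks, 33 of them cisplatin-only, and 20 Pt-ttpy peaks. The 500 kb before it held 2 cisplatin and 0 Pt-ttpy peaks, and the 500 kb after it 0 cisplatin and 1 Pt-ttpy peak. No member there was strong, with pileups of 14 to 22, and the best at chr13:81508853-81509271 had a -log10 q of 5.65. The block consisted of a pair of clusters with gaps under 10 kb, 12 peaks at chr13:81443362-81467400 and 21 at chr13:81477472-81541179. In the untreated list the nearest retained peaks on both sides were 20.8 Mb apart, with 34 numbers missing between them, and where in that stretch the missing numbers lay cannot be told.

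On the short arm of chromosome 11, 40 cisplatin-only peaks fell in the window from 14 to 15 Mb, the largest number of any quiet window. They formed a block of 31 over 293 kb at chr11:14096516-14389108, with 6 Pt-ttpy peaks, and one of 9 at chr11:14455795-14518076, with 2. After the block of 9 came 500 kb with 0 cisplatin and 0 Pt-ttpy peaks. The largest run with gaps under 10 kb held 14 cisplatin-only peaks between 14329530 and 14377253. The highest fold of the window, 3.81, was shared by 2 of its cisplatin-only peaks, chr11:14230486-14230588 being one. Further along the same arm the window from 41 to 42 Mb held 29 cisplatin-only and 9 Pt-ttpy-only peaks with 0 peaks common to both, and its strongest was at chr11:41493932-41494062 with a fold of 3.81. It continued into the next window, where 11 cisplatin-only and 4 Pt-ttpy-only peaks lay at chr11:42049797-42201840.

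The short arm of chromosome 2 carried 34 cisplatin-only peaks between 73 and 74 Mb, beside 9 Pt-ttpy-only peaks and 1 common to both. Of these, 26 lay in the block at chr2:73575900-73700725, and 18 in its densest 68 kb from 73633024 to 73700725. The highest fold of the window, 3.64, was shared by 3 cisplatin-only peaks, of which chr2:73641141-73641575 was 435 bp wide. Between 48 and 49 Mb on chromosome 14 there were 31 cisplatin-only, 12 Pt-ttpy-only and 4 common peaks. Blocks of 15 cisplatin-only peaks at chr14:48238443-48360853 and of 10 at chr14:48420879-48474030 held most of the cisplatin-only ones. In that window 5 cisplatin-only peaks shared the highest fold, 3.46, among them chr14:48101698-48101817.

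Flanks with few peaks were also seen on the long arm of chromosome 7. The block at chr7:110801039-111034269 held 30 cisplatin peaks, 26 of them cisplatin-only, and 13 Pt-ttpy peaks in 233 kb, against 0 cisplatin and 1 Pt-ttpy peak in the 500 kb before and 1 and 2 in the 500 kb after. A block of 15 at chr8:8002174-8056126 lay at the border of the quiet windows: the 500 kb before it held 32 cisplatin and 26 Pt-ttpy peaks, with 6 untreated peaks within 500 kb of the block, so it adjoins a cluster that the rule left out. Likewise the block of 10 at chr2:173000024-173022926 began just beyond the edge of a window with untreated peaks, and 84 cisplatin and 53 Pt-ttpy peaks lay in the 500 kb before it. The blocks on chromosomes 13, 11, 7 and 14 named above, and that from 73 Mb on chromosome 2, had no untreated peak within 500 kb.

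**Figure D4:**
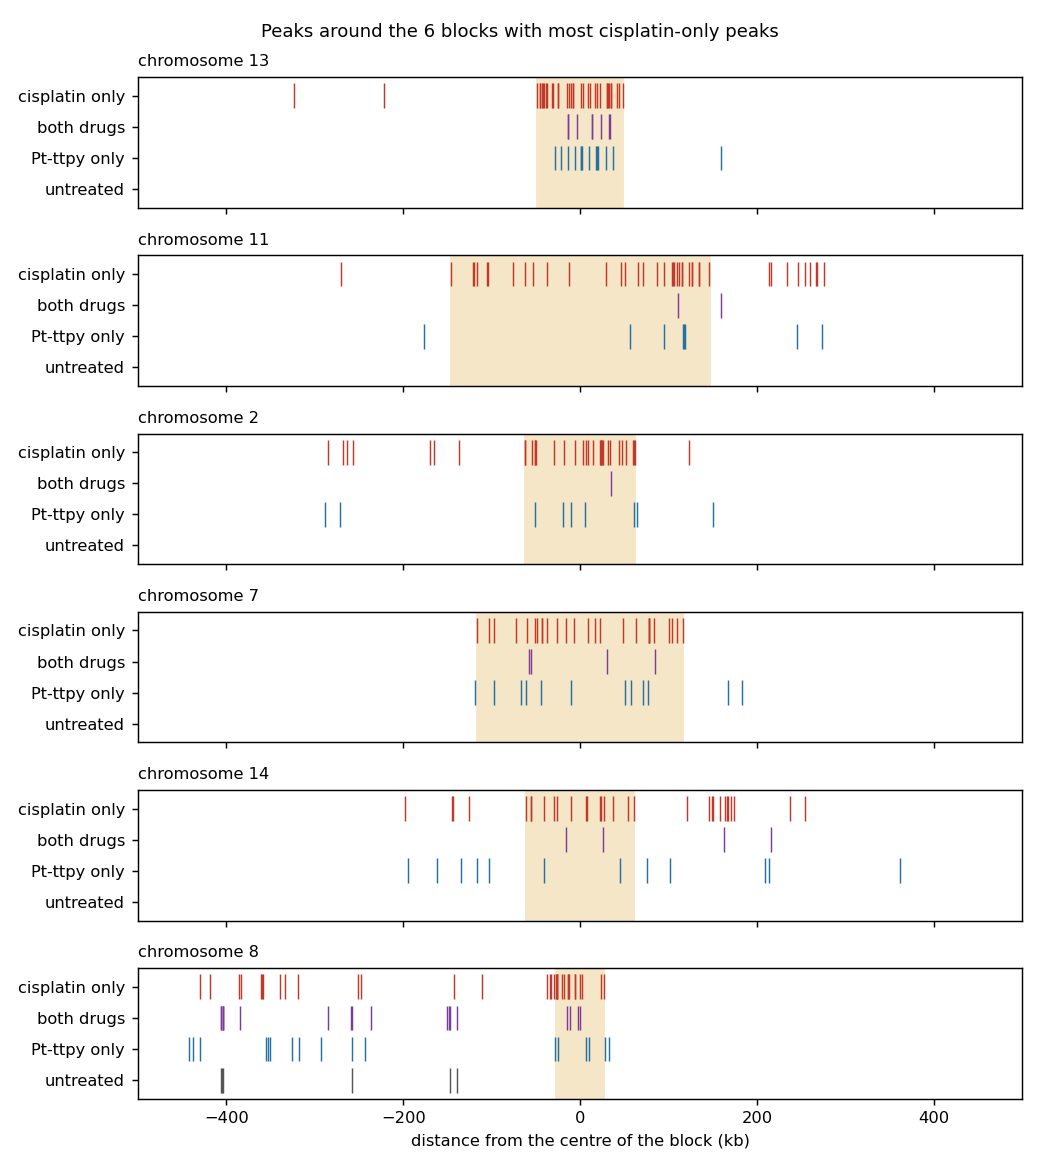
Peak midpoints within 500 kb of the centre of the 6 blocks with most cisplatin-only peaks (x axis, kb from the block centre; shaded, the block); rows from the top are cisplatin-only peaks, cisplatin peaks on a Pt-ttpy peak, Pt-ttpy-only peaks and untreated peaks, whether or not in a quiet window. The blocks on chromosomes 13 and 7 have few peaks of any list beside them, while that on chromosome 8 adjoins a cluster with untreated peaks.

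Over the 19 blocks of 8 or more cisplatin-only peaks, on 10 chromosomes, all cisplatin peaks together numbered 7.23 to 52.5 per 100 kb. The quiet windows as a whole had 0.903 cisplatin-only peaks per Mb and 0.104 cisplatin peaks per Mb on a Pt-ttpy peak. Blocks were picked for closely spaced peaks, so a higher density follows from that choice. Spans ran from 15.2 to 293 kb. Even so the called peaks covered 1.13 to 8.87% of a block, and median pileups stayed between 16 and 18.5 reads with no cisplatin-only peak over 26. At least 1 Pt-ttpy peak was called in 18 of the 19. The block without one was at chr11:41493932-41597665, with 8 cisplatin-only peaks.

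The limits of the rule passed through some of these places. The cisplatin-only peaks nearest to a Pt-ttpy peak, chr2:173016505-173016652, chr7:143545255-143545919 and chr13:81493399-81493566, were each 2 bp from one, with pileups of 20, 20 and 16. The peak on chromosome 7 was also the widest of all, at 665 bp. Just outside the rule, peaks dropped for the smallest overlaps were chr1:98423047-98423204 with 8 bp, chr16:21583034-21583157 with 9 bp and chr13:81505834-81506024 with 15 bp in common with a Pt-ttpy peak, at pileups of 15, 18 and 21. The median overlap of the dropped peaks was 105 bp. Within 1 kb of a Pt-ttpy peak lay 86 cisplatin-only peaks (4.42%). The nearest to an untreated peak was chr3:135009566-135009711, at 38.3 kb and with the lowest pileup, 14.

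At the other extreme were peaks remote from every other list. The farthest, at chr10:114263200-114263333, lay 9252 kb from the nearest Pt-ttpy peak, with a pileup of 17. The next, at chr3:63823669-63823769, was 8549 kb away and had a pileup of 16. The other 3 of the 5 most remote formed a block on the long arm of chromosome 10, at chr10:112690128-112690240, chr10:112734035-112734161 and chr10:112742330-112742478. Their pileups were 19, 15 and 17, beside a median of 17 and quartiles of 16 and 19 over all cisplatin-only peaks. Remoteness from the other lists thus did not go with strength in these 5.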

How the data were processed

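Per the submitters' processing notes, BWA 0.7.5, MACS2 2.1.0 and the build hg19 were used. No source used here gives the calling options, the control or how replicates were pooled. Each of the peak lists the authors deposited holds, for every peak, a fold (the ratio over background), a -log10 p-value, a -log10 q-value, a score equal to 10 times the -log10 q without its decimals, and a summit. These describe or rank peaks within 1 list.

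Fold was read as (scaled pileup + 1)/(background + 1). The spacing of folds gave whole pileups, and Poisson tails with 1 constant background per list came within 0.00159 of the deposited -log10 p-values over the 100 lowest folds. Read totals are not in the lists, so the depth is otherwise unknown. Overlap meant sharing 1 bp or more. Starts are counted from 1. Chromosome lengths and large gaps of hg19 came from general knowledge, and 0 peaks lay in a gap or past an end. Planned gene, GC and G-quadruplex motif results need an hg19 annotation or sequence and were not made. The members and lists were chosen with earlier results of these data known. Named regions were the 10 with the highest -log10 q, the 5 fullest windows, the 5 largest clusters with gaps up to 10 kb, the widest, and those nearest to and farthest from other lists. The blocks of up to 50 kb were added later. The code was tested on simulated lists. The tools were pandas 2.3.3, matplotlib 3.10.9, numpy 2.4.6 and scipy 1.17.1 under Python 3.11.15.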

Additional observations from a re-analysis of the deposited data

How the results depend on the processing

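No paired analysis was possible because each group has 1 list for both replicates; for the same reason no replicate could be left out. The number of cisplatin-only peaks, 1944, stayed within 1.5 times under other windows (1658 with 2 Mb, 2159 with 500 kb, 1923 with a shifted grid), merging within 1 kb, sharing within 1 kb and blocking by stronger peaks only. With a -log10 q of at least 5 it was 274, the cisplatin-only share 64.6%, the density 0.127 per Mb and the share with another within 10 kb 3.65%. There were 4.48 cisplatin-only peaks per Pt-ttpy-only peak, and 2.14 at a -log10 q of at least 5 in both lists, an alternative added after the data were seen. With peaks within 1 kb counted as shared, the shares were 85.7% and 15.3%. In windows where no untreated number could be missing they were 94.7% and 22.2%, with 18 peaks at 0.381 per Mb, beside 1 Pt-ttpy-only peak (a ratio of 18, also added later). Neighbours within 5 kb or 50 kb, in place of 18.8% within 10 kb, were found for 14.7% and 30.3%, as a wider distance must give. Without blocks 1555 peaks remained. The gene, GC and motif alternatives were not run.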

Other observations

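Chromosome X lay outside the rule. By the same rule it had 129 quiet windows with 165 cisplatin peaks, of which 150 (90.9%) were cisplatin-only, at 1.18 per Mb and with a median pileup of 17 reads and a median width of 126 bp. Its Pt-ttpy-only peaks numbered 28, or 0.220 per Mb.

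Chromosome 1 from 142 Mb on was also outside it. The 48 windows there without an untreated peak held 2829 cisplatin peaks, of which 2682 (94.8%) were cisplatin-only, at 55.9 per window. Their median pileup was 17 reads, the same as in the quiet windows, and their median width 143 bp.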
